A study of Rattus norvegicus with 10 samples.

Results

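The genes described here encode the carriers that move chloride, bicarbonate, protons, calcium, phosphate, zinc and other metals across membranes in the rat hippocampus. They were chosen by name: every row of the deposited expression table whose gene symbol begins with Slc4a, Slc8a, Slc9a, Slc12a, Slc20a, Slc24a, Slc26a, Slc30a or Slc39a was taken, and rows with the same symbol were added together in each library. This gave 69 genes on 80 of the 25269 rows of the table, which holds 23824 genes after the same summing. The Slc39 family had 13 members, Slc4 and Slc9 had 11 each, Slc30 had 10, Slc26 had 9, Slc12 had 7, Slc24 had 6, and Slc8 and Slc20 had 1 each. The rule also takes in 3 proteins that are not carriers, namely Slc4a1ap, the adaptor Slc9a3r1 (NHERF1) and the adaptor Slc9a3r2 (NHERF2). A further 5 rows name a carrier together with a neighbouring gene, and these are not members.

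Hippocampal messenger RNA was sequenced after poly-A selection in 10 libraries. The 5 TBI libraries came from male Sprague-Dawley rats with a traumatic brain injury by fluid percussion, in which a pulse of fluid strikes the exposed dura. The 5 sham libraries came from males of the same strain that had sham surgery. Both groups were tested for learning 1 week after surgery and were then killed, so the tissue of both had seen surgery and the test. The labels do not state that the libraries of a group came from different animals, and the spread behind each p-value is that between these libraries, which may be technical in part. Values are FPKM, fragments scaled to transcript length and to the mapped total of the library, so levels of different genes are compared per length. The read depth is unknown. Lists of library values below always run from library 1 to library 5 of a group.

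Transport of this kind sets the electrical and chemical background of a neuron. The chloride extruder KCC2 (Slc12a5) and the chloride importer NKCC1 (Slc12a2) set how far GABA receptors inhibit a cell, bicarbonate and proton carriers of the Slc4 and Slc9 families hold its pH, and sodium-calcium exchangers of the Slc8 and Slc24 families clear calcium after firing. Zinc is packed into glutamate vesicles of hippocampal mossy fibres by ZnT3 (Slc30a3), leaves the cytosol through other Slc30 proteins and enters it through Slc39 proteins. The same families are abundant in the choroid plexus, the epithelium that secretes cerebrospinal fluid and borders the hippocampus.

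The libraries differed in tissue content within both groups. Neuronal markers were present in all 10, and the hippocampal subfield marker Fibcd1 was at 0 throughout. The subfield list counted 11 genes found there, but Dsp was among them only through a synonym, Dspp. That row, at 0 throughout, may belong to another gene. Ttr, transthyretin of the choroid plexus, was at 32233, 72.7, 9079, 11837 and 17771 FPKM in the TBI libraries, against 34.5, 31400, 9405, 56.2 and 421 FPKM in the sham libraries. Of 20 choroid plexus markers, all but Folr1 were found in the table under their own symbol, and none of those was at 0 throughout. Folr1 was counted through a synonym, Fbp1, a row that may belong to another gene. That row was at most 0.187 FPKM and was not tested. The summed level of the list, with that row, ran from 225 to 34648 FPKM in TBI and from 190 to 33033 FPKM in sham. All 18 markers that could be tested had a higher mean in TBI. Library TBI 1 also held transcripts of the pineal gland: the summed level of a list of 12 pineal genes, drawn up after the values were seen, was 2171 FPKM there and at most 41.4 FPKM in sham, a level found in sham 2. Tph1, of serotonin synthesis, was at 1030 FPKM in TBI 1, 18.0 FPKM in sham 2 and at most 1.31 FPKM in the other 8 libraries, where no gene of the list exceeded 2.19 FPKM. The summed level of 10 neuronal markers was lowest in TBI 1, at 2965 FPKM, against a highest TBI sum of 5451 FPKM and a sham range of 4294 to 5562 FPKM. Of 12 endothelial and pericyte markers 9 had a lower mean in TBI and 2 an unadjusted limma p under 0.05, and all 11 microglial markers had a higher mean. All 7 ependymal markers tested had a higher mean in TBI, with a median log2 difference of 0.77, and 7 of 8 hippocampal subfield markers tested had a lower one, with a median of -0.20. Of the other lists, 9 of 10 oligodendrocyte and all 4 blood cell markers had a higher mean, and 7 of 9 astrocyte, 7 of 10 neuronal and 8 of 12 meningeal markers a lower one. No marker of any list passed adjustment.

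Of the 69 genes, 54 had a mean of at least 0.5 FPKM over the 10 libraries and were tested, and the other 15 are given by family below. The most abundant per length was Slc12a5 at a mean of 98.1 FPKM, followed by Slc24a2 at 92.3, Slc30a3 at 76.0, Slc30a9 at 66.8, Slc24a3 at 64.5 and Slc4a10 at 50.9 FPKM. These ranks are close in part: the library ranges of Slc12a5, which spanned 84.4 to 109 FPKM, and of Slc24a2, which spanned 44.1 to 113 FPKM, overlap, as do those of Slc30a9 and Slc24a3. In all, 34 of the 54 had a mean above 10 FPKM. The highest library was less than 2 times the lowest in 30 of the 54 (55.6%, against 59% of all genes tested) and more than 10 times the lowest in 7 (13%, against 5.87%). Those 7 were Slc4a5, Slc4a2, Slc39a4, Slc24a1, Slc39a12, Slc26a7 and Slc26a4.

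**Figure D1:**
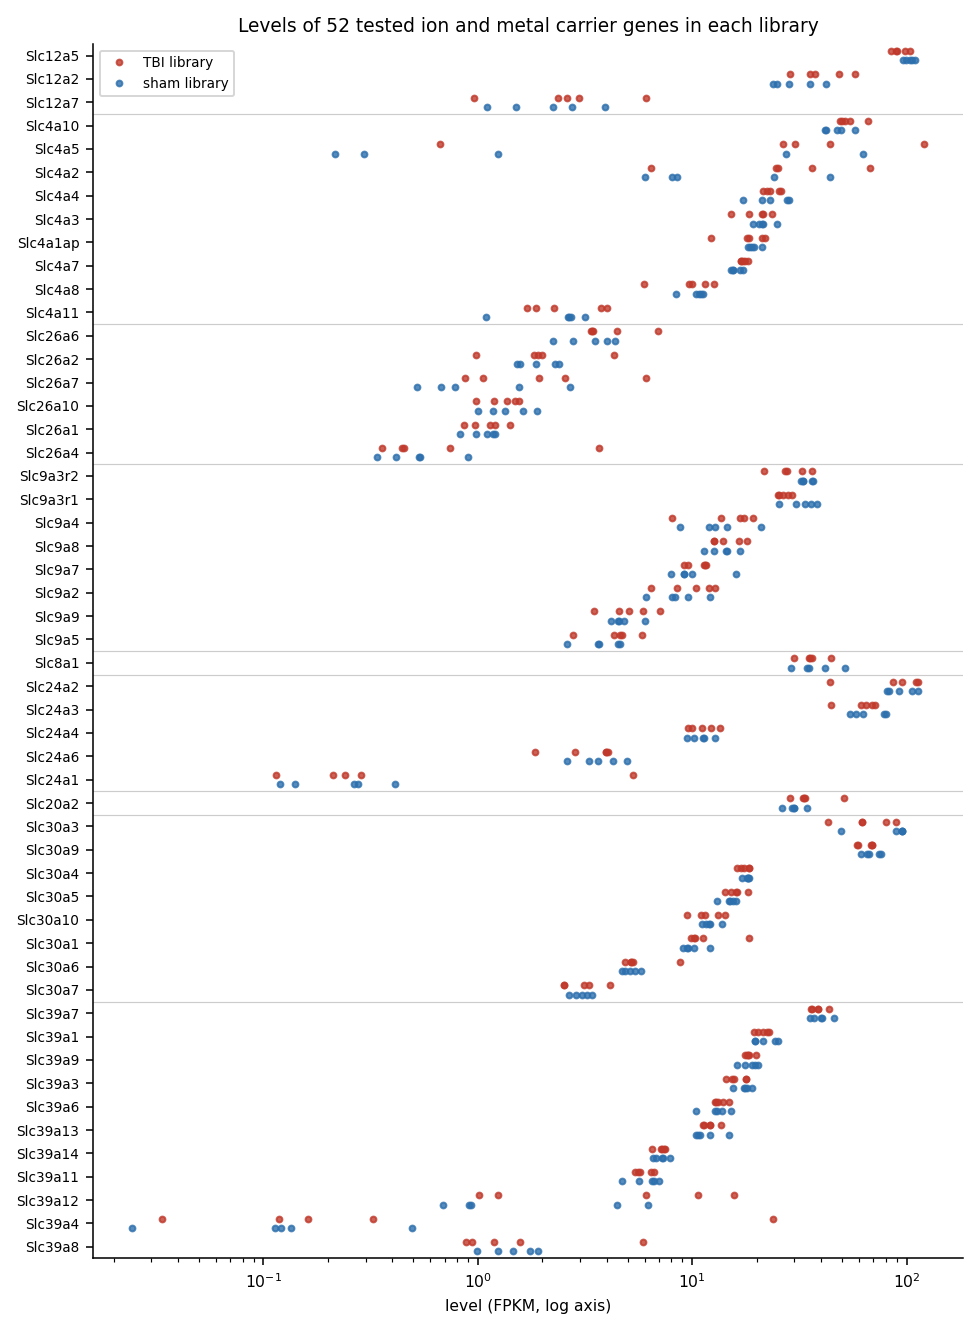
Level in FPKM (log axis) of 52 of the 54 tested genes, grouped by family, with 1 point per TBI library (red) and per sham library (blue). Most rows are narrow and the colours interleave, while Slc4a5 spreads from 0.215 to 120.2 FPKM and the highest point of Slc39a4, at 23.7 FPKM, is a single TBI library.

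The comparison of TBI with sham asks which of these genes differ 1 week after the injury. None of the 54 passed limma's test on log2(FPKM + 0.5) at a Benjamini-Hochberg adjusted p under 0.05, over 16194 genes of which 0% passed. The smallest adjusted p was 0.983 among these genes and 0.698 among all. Before adjustment, 1 of the 54 (1.85%) had a p under 0.05, namely Slc9a3r1, against 2.91% of all genes tested. The TBI and sham ranges overlapped in all 54, where 0.482% of all genes tested had ranges without overlap. A higher TBI mean on the log2 scale was found in 34 and a lower one in 20 (63% higher, against 50.4% of all genes), with a median log2 difference of 0.05 (0.0013 over all genes). With 1 library left out this median ran from 0.0191, without TBI 1, to 0.0737, without TBI 2.

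If the spread between these libraries stands for that between animals, the intervals limit the size of a difference for most of these genes. The reach to either side of the 95% interval had a median of 0.34 log2 units (0.32 over all genes), and the whole interval lay within 1 log2 unit either way in 46 genes and within 0.5 in 30. Wide intervals belonged to genes whose libraries were far apart, such as Slc4a5, Slc39a4 and Slc39a12. Differences on the log2(FPKM + 0.5) scale understate the change of low genes.

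**Figure D2:**
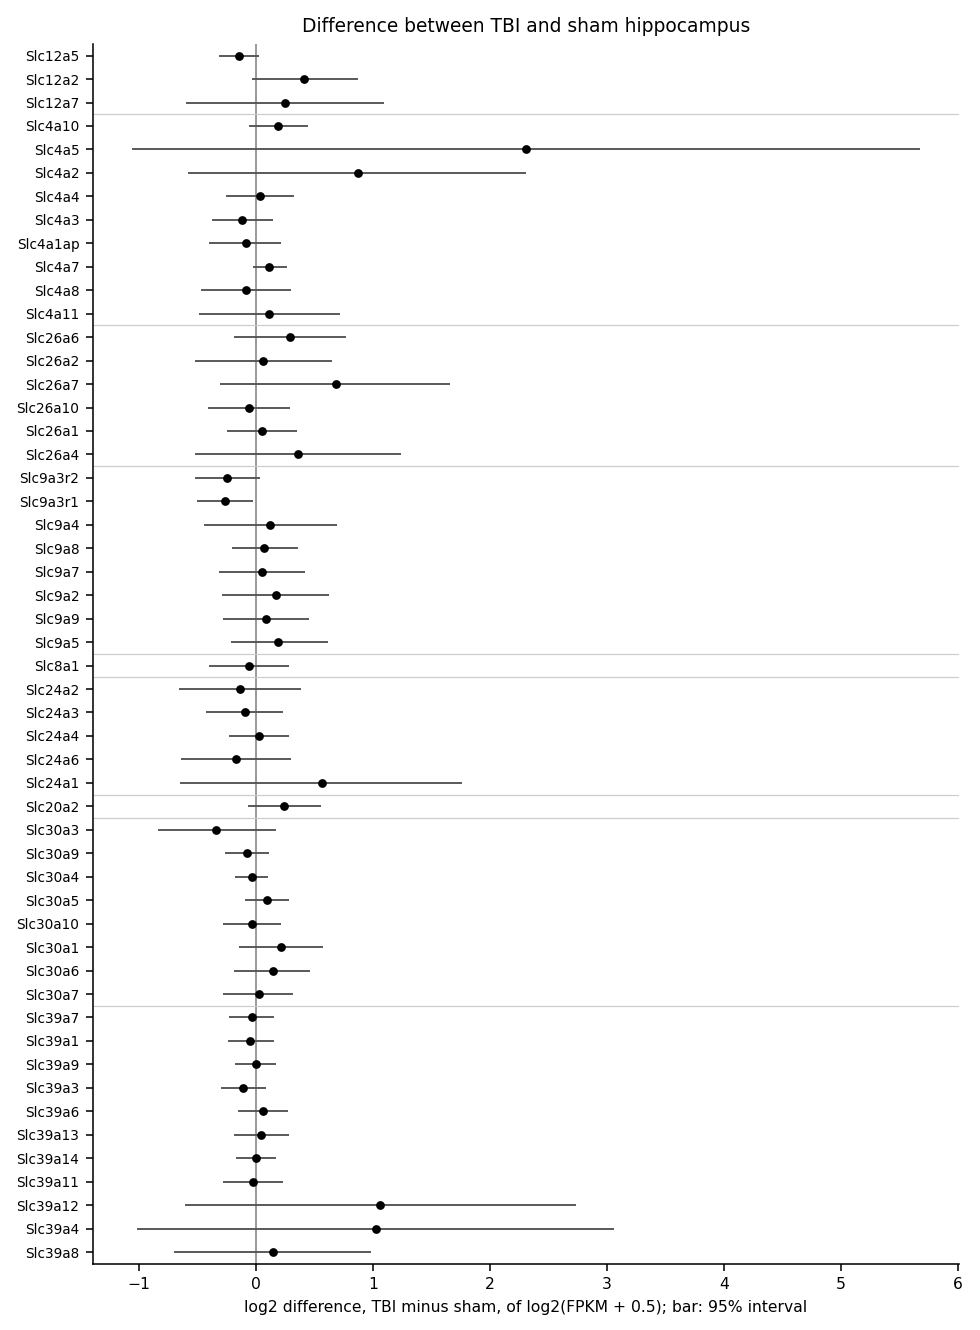
Log2 difference, TBI minus sham, of the same 52 tested genes (points) with its 95% interval from limma (bars), on the log2(FPKM + 0.5) scale. The bar of Slc9a3r1, from -0.51 to -0.03, is the single one drawn that leaves out 0, and the bar of Slc4a5, from -1.06 to 5.67, is the widest.

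Among the cation-chloride carriers of the Slc12 family, neither of the 2 most abundant members passed the test, and their means lay in opposite directions. KCC2 (Slc12a5), which extrudes chloride from mature neurons, was at 84.4, 104, 98.3, 89.2 and 89.8 FPKM in TBI, against 109, 107, 104, 96.6 and 99.6 FPKM in sham. The 3 lowest libraries were TBI 1, TBI 4 and TBI 5, but TBI 2 and TBI 3 lay inside the sham range. The means were 93.1 ± 7.88 FPKM in TBI and 103 ± 5.01 FPKM in sham (SD, n = 5 each), a log2 difference of -0.15 with a 95% interval of -0.32 to 0.02.

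NKCC1 (Slc12a2), which loads cells with chloride and is also a main carrier of the choroid plexus, was at 57.5, 28.7, 35.5, 37.6 and 48.4 FPKM in TBI, against 25.0, 42.1, 35.3, 28.3 and 23.8 FPKM in sham. TBI 1 and TBI 5 were highest and sham 5 and sham 1 lowest, and the ranges overlapped. Its means were 41.6 ± 11.4 FPKM in TBI and 30.9 ± 7.68 FPKM in sham (SD, n = 5 each), a log2 difference of 0.41 with an interval of -0.04 to 0.87. The 6 libraries with the most Ttr held the 6 highest values of Slc12a2. Once a choroid plexus score, the mean centred log2 value of the markers, entered the model as a covariate the difference was 0.17. In bulk tissue a change in the share of cells of a type and a change in RNA per cell cannot be told apart. The gene stood on 3 rows of the table, and the 2 abundant ones gave differences of 0.39 and 0.46.

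The log2 ratio of Slc12a5 to Slc12a2, a value that library scaling hardly touches, was 0.55, 1.84, 1.46, 1.24 and 0.88 in TBI, against 2.10, 1.33, 1.54, 1.76 and 2.04 in sham. It was lowest in TBI 1 and TBI 5, and TBI 2 exceeded 3 of the 5 sham libraries. The mean was 1.19 ± 0.5 in TBI and 1.75 ± 0.33 in sham (SD, n = 5 each), a difference of -0.56 with an exact two-sided permutation p of 0.0635 over 252 assignments, whose smallest possible p is 0.00794. Leaving out 1 library moved the difference between -0.72 and -0.40, and the exact permutation p was 0.0317 without TBI 2 and 0.0476 without sham 2. The 2 libraries with the lowest ratio, TBI 1 and TBI 5, had Ttr of 32233 and 17771 FPKM, and the part of choroid plexus content in the ratio was not tested.

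**Figure D3:**
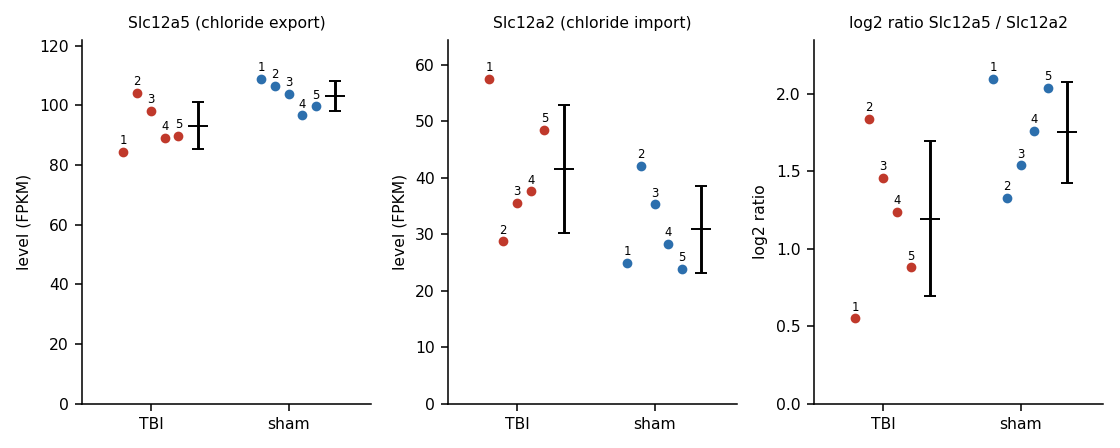
Levels of Slc12a5 and Slc12a2 (FPKM) and their log2 ratio in TBI (red) and sham (blue) libraries, numbered as in the labels, with the mean and SD of each group in black. The TBI ratios run from 0.55 to 1.84 and the sham ratios from 1.33 to 2.10, so the groups overlap.

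The potassium-chloride carrier Slc12a7 (KCC4) was lower in level, at 6.11, 0.963, 2.60, 2.37 and 2.96 FPKM in TBI, against 1.10, 3.93, 2.24, 2.75 and 1.5 FPKM in sham, with the highest values in TBI 1 and sham 2, the libraries with the most Ttr. The kidney carriers Slc12a1 and Slc12a3 and the carrier Slc12a8 had means of 0.0161 to 0.284 FPKM and were not tested. Slc12a4 (KCC1) and Slc12a9 are read only in rows shared with Lcat and LOC686323. The kinases and partners that control these carriers did not pass either: of 12 genes found 11 were tested, 3 had a higher and 8 a lower mean in TBI, 0 were called and 0 had an unadjusted p under 0.05, with a median log2 difference of -0.02. The smallest p in that list was that of Cab39l, an activator of the kinases Stk39 and Oxsr1, which was at 57.2, 13.9, 28.3, 31.9 and 44.3 FPKM in TBI, against 13.3, 34.2, 29.9, 14.4 and 16.6 FPKM in sham. Its 6 highest libraries were again the 6 with the most Ttr.

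The bicarbonate carriers of the Slc4 family contained the gene with the widest interval, and its spread followed Ttr. Slc4a5 (NBCe2), a sodium bicarbonate cotransporter of choroid plexus epithelium, was at 120.2, 0.666, 26.5, 30.3 and 43.8 FPKM in TBI, against 0.215, 62.8, 27.4, 0.295 and 1.24 FPKM in sham. The 4 libraries under 2 FPKM, TBI 2, sham 1, sham 4 and sham 5, are the 4 with the least Ttr. The means of 44.3 ± 45.2 FPKM in TBI and 18.4 ± 27.4 FPKM in sham (SD, n = 5 each) differed by 2.31 on the log2 scale, with an interval of -1.06 to 5.67, and by 0.23 with the choroid covariate.

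The anion exchanger AE2 (Slc4a2), which trades chloride for bicarbonate and lies on the blood side of that epithelium, was also highest in the 6 libraries with the most Ttr. It was at 67.5, 6.40, 24.5, 25.3 and 36.4 FPKM in TBI, against 6.03, 43.9, 24.0, 8.53 and 8.05 FPKM in sham. Its log2 difference of 0.87, with an interval of -0.58 to 2.31, was -0.01 with the covariate.

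**Figure D4:**
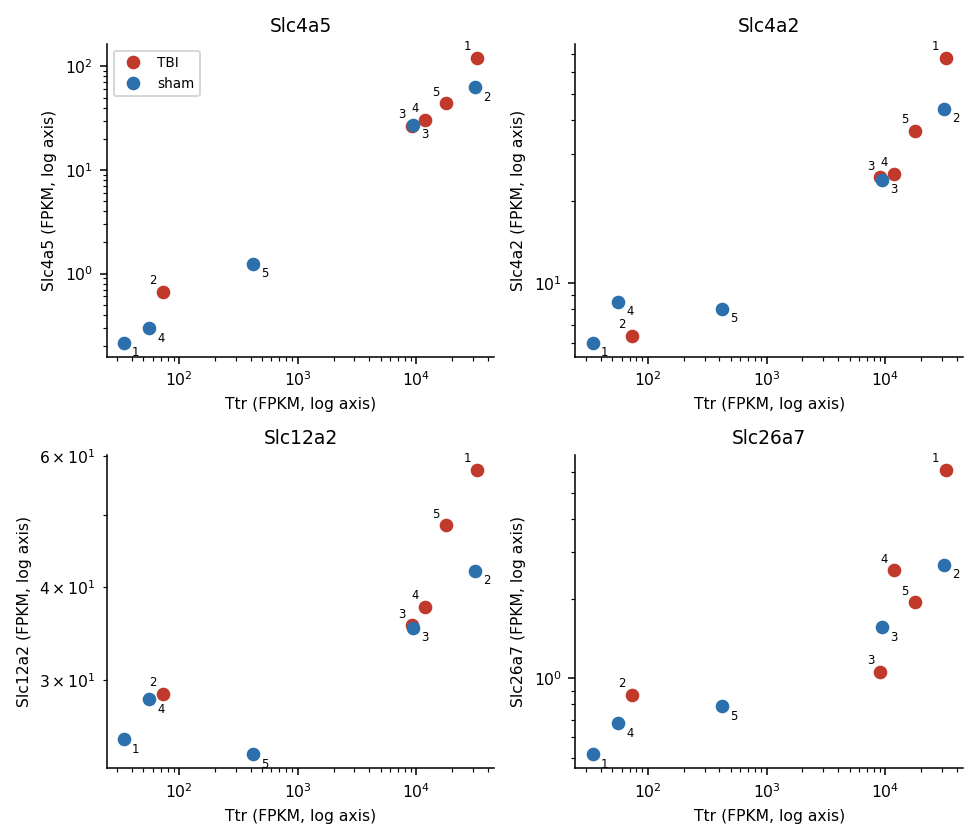
Levels of Slc4a5, Slc4a2, Slc12a2 and Slc26a7 against Ttr, all in FPKM on log axes, with 1 numbered point per TBI (red) and sham (blue) library. TBI 2, sham 1, sham 4 and sham 5 sit at the lower left of each panel, and TBI 1, with Ttr at 32233 FPKM, is the highest point in all 4 panels.

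The sodium bicarbonate carrier Slc4a10 (NBCn2) was the most abundant Slc4 member. It was at 66.1, 48.8, 51.9, 54.5 and 50.2 FPKM in TBI, against 57.3, 47.3, 49.6, 41.6 and 42.0 FPKM in sham. Each TBI library lay above the sham mean of the log2 values, while sham 1 was higher than all but TBI 1. Means were 54.3 ± 6.94 FPKM in TBI and 47.6 ± 6.46 FPKM in sham (SD, n = 5 each), a log2 difference of 0.19 with an interval of -0.06 to 0.44. This difference was 0.12 without TBI 1 and 0.15 with the choroid covariate.

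Slc4a7 (NBCn1), another sodium bicarbonate cotransporter and the Slc4 member with the smallest p, was among the steadiest genes in its summed level. It was at 16.9, 17.7, 16.9, 18.2 and 17.2 FPKM in TBI, against 17.3, 15.2, 15.5, 15.5 and 16.8 FPKM in sham. Sham 1 alone of the sham libraries reached into the TBI range. The rows behind this sum were less steady. The more abundant row ran from 8.06 to 12.3 FPKM over all libraries and was lowest in sham 1. The other row ran from 4.38 to 9.21 FPKM and was highest in sham 1. Taken alone, these rows gave log2 differences of 0.06 and 0.24, with unadjusted limma p of 0.602 and 0.247. For the summed level of Slc4a7 the values were as follows. The log2 difference was 0.11, with an interval of -0.03 to 0.26, from means of 17.4 ± 0.555 FPKM in TBI and 16.1 ± 0.906 FPKM in sham (SD, n = 5 each).

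The other 5 tested Slc4 genes had log2 differences between -0.12 and 0.11. The astrocytic sodium bicarbonate carrier Slc4a4 had means of 23.7 FPKM in TBI and 23.5 FPKM in sham, the neuronal anion exchanger Slc4a3 had 19.9 FPKM in TBI and 21.5 FPKM in sham, and the sodium-driven exchanger Slc4a8 had 9.95 FPKM in TBI and 10.4 FPKM in sham. Slc4a1, the anion exchanger of red blood cells, and Slc4a9 had means over the 10 libraries of 0.0757 and 0.00908 FPKM and were not tested. Among the carbonic anhydrases, which make and consume bicarbonate, 15 genes were found and 11 tested, 7 with a higher and 4 with a lower mean in TBI, 0 called and 0 with an unadjusted p under 0.05, at a median log2 difference of 0.20. The smallest p was that of Car6, a secreted form, at 7.01, 8.22, 7.42, 8.89 and 8.15 FPKM in TBI, against 7.92, 9.64, 10.8, 8.26 and 12.0 FPKM in sham. Its log2 difference was -0.27 with an interval of -0.53 to 0.00.

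The Slc26 anion exchangers were low per length, with the highest mean at 3.86 FPKM. That was Slc26a6, an exchanger of chloride, oxalate and bicarbonate, at 6.92, 3.42, 4.47, 3.36 and 3.44 FPKM in TBI, against 4.38, 3.52, 4.02, 2.79 and 2.25 FPKM in sham. TBI 1 stood above the rest, and the other TBI libraries lay between 3.36 and 4.47 FPKM, against a sham range of 2.25 to 4.38 FPKM. The log2 difference was 0.29, with an interval of -0.19 to 0.77, and 0.12 without TBI 1.

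Slc26a7, a chloride and anion carrier known from kidney and stomach, was at 6.12, 0.869, 1.06, 2.55 and 1.93 FPKM in TBI, against 0.518, 2.68, 1.56, 0.677 and 0.785 FPKM in sham. Its 2 highest libraries, TBI 1 and sham 2, were those with the most Ttr. The log2 difference of 0.68, with an interval of -0.31 to 1.66, was 0.33 without TBI 1 and 0.17 with the choroid covariate. Pendrin (Slc26a4), an iodide and bicarbonate exchanger of thyroid and inner ear, was at 3.69 FPKM in TBI 1, at most 0.746 FPKM in the other TBI libraries and at most 0.901 FPKM in sham, and its log2 difference of 0.36 was -0.06 without TBI 1. The sulfate carriers Slc26a1 and Slc26a2 and the carrier Slc26a10 had log2 differences of 0.05, 0.06 and -0.06, and none of these signs held throughout. With 1 library left out they ran from -0.01 to 0.11 for Slc26a1, from -0.17 (without TBI 1) to 0.25 for Slc26a2 and from -0.14 to 0.03 for Slc26a10. Those of Slc26a1 and Slc26a2 also turned under quantile normalization, and that of Slc26a2 was -0.15 with the choroid covariate and -0.04 with array weights. Slc26a3 and Slc26a9 averaged 0.290 and 0.0244 FPKM over the 10 libraries, and prestin (Slc26a5), the motor protein of outer hair cells, was listed at 0 in all 10 libraries.

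The Slc9 group held the single gene with an unadjusted p under 0.05. Slc9a3r1 (NHERF1), a scaffold that ties exchangers and other membrane proteins to ezrin and the cytoskeleton, was at 25.5, 25.0, 29.1, 26.5 and 28.1 FPKM in TBI, against 25.4, 35.7, 33.5, 30.5 and 38.4 FPKM in sham. All 5 TBI libraries were below 4 of the 5 sham libraries, and sham 1 lay among them. Means of 26.8 ± 1.74 FPKM in TBI and 32.7 ± 5.01 FPKM in sham (SD, n = 5 each) gave a log2 difference of -0.27, with an interval of -0.51 to -0.03, an unadjusted limma p of 0.0311 and an adjusted p of 0.983. The difference was between -0.35 and -0.21 in all alternatives run. Its unadjusted limma p was not under 0.05 in 6 of the 10 fits with 1 library left out, those without TBI 1, TBI 2, TBI 4, sham 2, sham 3 or sham 5, and ran from 0.00221 to 0.0797 over the 10 fits.

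Its relative Slc9a3r2 (NHERF2) was at 21.7, 36.2, 32.4, 27.8 and 27.0 FPKM in TBI, against 32.7, 36.6, 32.0, 36.1 and 32.8 FPKM in sham. TBI 1, TBI 4 and TBI 5 were the 3 lowest libraries, while TBI 2 and TBI 3 lay in the sham range. The log2 difference was -0.25, with an interval of -0.52 to 0.03, from means of 29.0 ± 5.56 FPKM in TBI and 34.1 ± 2.13 FPKM in sham (SD, n = 5 each). It was -0.15 without TBI 1.

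The sodium-proton exchangers themselves differed by less than their spread. All 7 tested had a higher TBI mean on the log2 scale, by 0.05 to 0.19, and none had an unadjusted p under 0.05. The differences of Slc9a4, Slc9a7 and Slc9a9 were each -0.03 in 1 of the fits with a library left out, without sham 4, sham 2 and TBI 3 in that order. Slc9a4 was at 8.08 to 19.3 FPKM in TBI and 8.79 to 21.0 FPKM in sham, and Slc9a2 at 6.42 to 12.8 FPKM in TBI and 6.11 to 12.1 FPKM in sham. Sham 1 held the highest value of the 10 libraries for Slc9a4 and Slc9a7, at 21.0 and 16.1 FPKM. The epithelial exchanger Slc9a3, at means of 0.0834 FPKM in TBI and 0.0787 FPKM in sham, was not tested, and Slc9a10, a sperm exchanger, was listed at 0 in all libraries. Of the partners of the exchangers 9 were found and 8 tested, 5 with a higher and 3 with a lower mean in TBI, 0 called and 0 with an unadjusted p under 0.05, at a median log2 difference of 0.02. Ahcyl2, a partner of bicarbonate carriers and the list's smallest p, was at 60.6, 27.8, 33.7, 41.8 and 44.5 FPKM in TBI, against 25.1, 41.7, 42.8, 32.4 and 30.9 FPKM in sham.

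Among the calcium exchangers, Slc8a1 (NCX1), which trades calcium for sodium at the plasma membrane, was at 29.8, 44.5, 35.5, 35.0 and 36.1 FPKM in TBI, against 51.7, 34.9, 34.3, 28.9 and 41.5 FPKM in sham. The highest and the lowest library were both sham. Its log2 difference of -0.06 had an interval of -0.40 to 0.28. Slc8a2 and Slc8a3, the other 2 exchangers of the family, appear only on rows shared with Kptn and Cox16. Those rows ran from 54.9 to 122 FPKM in TBI and 78.3 to 121 FPKM in sham for Kptn and Slc8a2, and from 12.3 to 22.1 FPKM in TBI and 15.1 to 17.5 FPKM in sham for Cox16 and Slc8a3. Reads of the neighbours cannot be separated there.

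Slc24a2 (NCKX2), a neuronal exchanger that also uses potassium, was at 44.1, 95.6, 110.3, 86.6 and 113 FPKM in TBI, against 91.8, 81.1, 106, 82.6 and 113 FPKM in sham. TBI 1 lay far below every other library, and the remaining TBI libraries lay between 86.6 and 113 FPKM, where sham spanned 81.1 to 113 FPKM. Means of 89.8 ± 27.7 FPKM in TBI and 94.9 ± 14.0 FPKM in sham (SD, n = 5 each) gave a log2 difference of -0.14, with an interval of -0.66 to 0.38, and of 0.0984 without TBI 1. Its 2 rows did not keep a fixed proportion: the minor row was at 2.80 FPKM in TBI 1 and 24.0 to 34.3 FPKM in the other TBI libraries, against 11.2 to 34.3 FPKM in sham.

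Slc24a1 (NCKX1), known from rod photoreceptors, was at 5.30, 0.239, 0.211, 0.284 and 0.114 FPKM in TBI, against 0.409, 0.275, 0.140, 0.264 and 0.120 FPKM in sham. Only TBI 1 exceeded 0.5 FPKM, so the gene entered the test through that library. The log2 difference of 0.56, with an interval of -0.65 to 1.76, was -0.0508 without it. TBI 1 was also the library with the pineal transcripts. Sag, an arrestin of photoreceptors and pineal cells, was at 40.9 FPKM there, 0.465 FPKM in sham 2 and at most 0.0734 FPKM elsewhere, and the part of pineal content in the level of Slc24a1 was not tested. The pigment cell exchanger Slc24a5, which was not tested, was at 1.90 FPKM in TBI 1 and at most 0.283 FPKM in the other TBI libraries, against at most 0.539 FPKM in sham.

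The remaining 3 exchangers also had overlapping ranges. Slc24a3 was at 44.6 to 71.4 FPKM in TBI and 54.8 to 80.3 FPKM in sham, and Slc24a4 at 9.54 to 13.5 FPKM in TBI and 9.45 to 12.8 FPKM in sham. Slc24a6, the exchanger of the mitochondrial inner membrane also called NCLX, had means of 3.32 ± 0.962 FPKM in TBI and 3.76 ± 0.906 FPKM in sham (SD, n = 5 each).

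The sodium-phosphate carrier PiT2 (Slc20a2), mutated in familial brain calcification, was at 51.1, 28.7, 33.4, 33.0 and 33.4 FPKM in TBI, against 29.8, 34.3, 29.2, 29.8 and 26.3 FPKM in sham. TBI 1 stood above all others, and sham 2 was next. Means of 35.9 ± 8.75 FPKM in TBI and 29.9 ± 2.87 FPKM in sham (SD, n = 5 each) gave a log2 difference of 0.24, with an interval of -0.07 to 0.55, and of 0.10 without TBI 1. Of its 2 rows, the more abundant was at 38.5 FPKM in TBI 1 and 17.9 to 23.0 FPKM in the other TBI libraries, against 14.5 to 21.9 FPKM in sham. The other row was at 10.4 to 12.7 FPKM in TBI and 10.3 to 12.4 FPKM in sham. Taken alone, the log2 difference was 0.38 for the more abundant row of Slc20a2 and -0.03 for the other. Its relative Slc20a1 is read only on a row shared with Chchd5, at 42.7 to 48.6 FPKM in TBI and 41.7 to 46.3 FPKM in sham. Partners in phosphate and manganese handling included 9 genes found and 7 tested, 3 with a higher and 4 with a lower mean in TBI, 0 called and 0 with an unadjusted p under 0.05, at a median log2 difference that rounds to 0.00. Xpr1, the phosphate exporter, averaged 18.4 FPKM in TBI and 18.8 FPKM in sham. The smallest p was that of Kl (klotho), which is also a choroid plexus marker and stood at 72.8, 0.166, 21.8, 27.7 and 47.1 FPKM in TBI, against 0.0862, 44.0, 26.2, 0.242 and 1.27 FPKM in sham.

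The zinc exporters of the Slc30 family divided evenly, 4 tested members with a higher and 4 with a lower TBI mean. ZnT3 (Slc30a3), which fills glutamate vesicles with zinc, was at 43.0, 61.8, 80.2, 61.7 and 89.2 FPKM in TBI, against 49.3, 94.8, 95.1, 89.6 and 95.6 FPKM in sham. All 5 TBI libraries lay below 4 of the sham libraries, and sham 1 lay below all but TBI 1. The means of 67.2 ± 18.0 FPKM in TBI and 84.9 ± 20.0 FPKM in sham (SD, n = 5 each) differed by -0.34 on the log2 scale, with an interval of -0.84 to 0.17, by -0.19 without TBI 1 and by -0.52 without sham 1. The unadjusted limma p was 0.17, and it was 0.0186 without sham 1 and 0.0416 with array weights. It was 0.388 without TBI 1, 0.137 with the choroid covariate and 0.556 without both TBI 1 and sham 2. Of the fits with 1 library left out, only that without sham 1 had a p under 0.05. TBI 1 was also lowest in the neuronal marker sum and, at 267 FPKM, in the sum of the hippocampal subfield list. That sum reached 545 FPKM in the other TBI libraries, against 353 to 660 FPKM in sham with sham 1 lowest. The part of neuron and subfield content in the level of Slc30a3 was not tested.

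ZnT1 (Slc30a1), which exports zinc at the plasma membrane, is induced by zinc through the metal regulatory factor MTF-1, as are the metallothioneins. MTF-1 binds metal response elements, whose core is TGCACNC or TGCGCNC. The 250 bases before the RefSeq gene start (build GRCr8) are shown for Slc30a1 and for the metallothionein genes Mt1a (Mt1 in RefSeq) and Mt2A, because these are the standard genes with such elements. Capitals mark each match to TGCACNC or TGCGCNC on either strand, where matches on opposite strands may overlap. The window of Slc30a1 is chr13:106021769-106022018 on the plus strand, that of Mt1a is chr19:10832976-10833225 and that of Mt2A is chr19:10838709-10838958, both on the minus strand.
Slc30a1: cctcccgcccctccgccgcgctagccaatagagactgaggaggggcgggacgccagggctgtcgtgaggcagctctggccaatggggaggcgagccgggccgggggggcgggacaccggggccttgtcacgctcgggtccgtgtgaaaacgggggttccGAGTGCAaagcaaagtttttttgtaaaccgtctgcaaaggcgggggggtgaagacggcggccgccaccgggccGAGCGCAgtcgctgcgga
Mt1a: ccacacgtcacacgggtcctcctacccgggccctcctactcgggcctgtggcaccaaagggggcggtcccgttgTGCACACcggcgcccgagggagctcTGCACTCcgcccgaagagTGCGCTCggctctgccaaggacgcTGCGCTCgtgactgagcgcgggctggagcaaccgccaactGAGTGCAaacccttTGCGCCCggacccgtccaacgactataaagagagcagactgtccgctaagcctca
Mt2A: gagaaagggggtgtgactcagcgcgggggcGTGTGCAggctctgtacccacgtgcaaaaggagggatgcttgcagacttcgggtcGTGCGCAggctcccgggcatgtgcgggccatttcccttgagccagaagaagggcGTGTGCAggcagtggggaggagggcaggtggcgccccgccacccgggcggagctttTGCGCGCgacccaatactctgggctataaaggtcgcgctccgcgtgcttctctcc

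Slc30a1 has 1 match to each pattern, 91 and 18 bases before the start, Mt1a has 3 of each and Mt2A has 2 of each. A RefSeq promoter was found for 54 of the 69 genes, whether or not they were tested, and 18 of these (33.3%) hold at least 1 match to either pattern, against 20.6% of 33469 rat promoters of the same length. By pattern, TGCACNC was in 8 (14.8%, against 10.3%) and TGCGCNC in 15 (27.8%, against 11.8%). At least 1 match to either pattern was in 4 of 7 Slc30, 4 of 11 Slc39 and 4 of 8 Slc4 promoters, so such matches were not confined to the zinc families. The base composition of the windows was not taken into account. A match is a description of the letters in the window and not of binding.

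The levels of these genes did not separate the groups. Slc30a1 was at 18.4, 9.93, 10.2, 11.3 and 10.3 FPKM in TBI, against 12.1, 9.09, 9.57, 9.47 and 10.2 FPKM in sham. TBI 1 stood apart, and the other 9 libraries lay between 9.09 and 12.1 FPKM. The log2 difference was 0.21, with an interval of -0.15 to 0.57, and 0.048 without TBI 1. Mt1a averaged 8.62 ± 2.05 FPKM in TBI and 7.38 ± 1.90 FPKM in sham, and Mt2A 20.7 ± 2.39 FPKM in TBI and 20.9 ± 5.07 FPKM in sham (SD, n = 5 each). Both had ranges that overlapped. Of the zinc handling genes outside the carriers 8 were found and tested, 5 with a higher and 3 with a lower mean in TBI, 0 called and 0 with an unadjusted p under 0.05, at a median log2 difference of 0.01. The smallest p there was that of Trpm7, a divalent cation channel, at 23.6, 10.8, 10.9, 10.6 and 12.2 FPKM in TBI, against 11.2, 14.5, 10.6, 10.3 and 8.12 FPKM in sham.

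Slc30a10, which exports manganese, was at 9.45, 13.2, 14.2, 11.0 and 11.4 FPKM in TBI, against 13.9, 11.1, 11.6, 12.1 and 11.9 FPKM in sham. TBI libraries held both the highest and the lowest value. Its log2 difference was -0.04, with an interval of -0.28 to 0.21. Slc30a4, which loads zinc into endosomes, was the steadiest of the 54, with a coefficient of variation of 4.46% over the 10 libraries and means of 17.4 ± 0.962 FPKM in TBI and 18.0 ± 0.549 FPKM in sham (SD, n = 5 each). The Golgi and secretory pathway members Slc30a5, Slc30a6 and Slc30a7 had log2 differences of 0.09, 0.14 and 0.02, and without TBI 1 these were 0.04, -0.01 and -0.08. Slc30a6 was at 8.77 FPKM in TBI 1 and at most 5.29 FPKM in the other TBI libraries, against at most 5.76 FPKM in sham, and the sign of Slc30a7 also turned under quantile normalization, with array weights and with the choroid covariate. Slc30a9, the most abundant of the family after Slc30a3, had means of 64.9 ± 5.43 FPKM in TBI and 68.7 ± 6.08 FPKM in sham (SD, n = 5 each) and a log2 difference of -0.08. Slc30a8, of pancreatic beta cells, and Slc30a2, of mammary gland, averaged 0.0329 and 0.0214 FPKM over the 10 libraries.

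The zinc importers of the Slc39 family were mostly close in level between groups, and its wide members were wide within groups. Slc39a7 (ZIP7), which releases zinc from the endoplasmic reticulum and was the most abundant, was at 35.7, 36.2, 38.6, 38.8 and 43.5 FPKM in TBI, against 35.5, 45.9, 40.4, 39.7 and 36.8 FPKM in sham. The ranges lay nearly over each other, with a log2 difference of -0.04 and an interval of -0.23 to 0.15. Of the zinc and manganese importers, Slc39a14 (ZIP14) was at 6.53, 7.45, 7.20, 7.18 and 7.40 FPKM in TBI, against 6.78, 7.86, 7.21, 6.55 and 7.32 FPKM in sham. The highest library was 1.2 times the lowest, and the log2 difference was 0.0026 with an interval of -0.17 to 0.17.

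Slc39a8 (ZIP8), the other importer of manganese, was at 5.91, 0.880, 0.941, 1.19 and 1.57 FPKM in TBI, against 0.990, 1.46, 1.24, 1.91 and 1.75 FPKM in sham. TBI 1 was 3.09 times the next library, and the other TBI libraries lay within or below the sham range. The log2 difference of 0.14, with an interval of -0.70 to 0.98, was -0.26 without TBI 1. Slc39a4 (ZIP4), the zinc importer of the intestine, was at 23.7 FPKM in TBI 1, 48.3 times the next library, and at most 0.323 FPKM in the other TBI libraries and 0.491 FPKM in sham. Like Slc24a1, it entered the test through TBI 1, and its log2 difference of 1.02 was -0.02 without it.

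Slc39a12 (ZIP12), a zinc importer of the nervous system, was at 10.7, 6.12, 1.25, 15.7 and 1.01 FPKM in TBI, against 0.691, 0.906, 0.931, 4.48 and 6.24 FPKM in sham. Values fell into a low set near 1 FPKM (TBI 3, TBI 5, sham 1, sham 2 and sham 3) and a high set from 4.48 to 15.7 FPKM, and both sets held both groups. Its order did not follow Ttr, since TBI 2 and sham 4 had little Ttr and high Slc39a12 while sham 2 had the reverse. Means of 6.95 ± 6.29 FPKM in TBI and 2.65 ± 2.55 FPKM in sham (SD, n = 5 each) gave a log2 difference of 1.06 with an interval of -0.61 to 2.73, which was 0.64 without TBI 4 and 1.49 without TBI 5. The other 6 tested importers, Slc39a1, Slc39a3, Slc39a6, Slc39a9, Slc39a11 and Slc39a13, had log2 differences from -0.11 to 0.06, and Slc39a5 and Slc39a2 were not tested.

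Library TBI 1 held the highest of the 10 values in 19 of the 54 genes (35.2%, against 22.1% of all genes tested) and the lowest in 14 (25.9%, against 28.6%). Its high genes included Slc4a5, Slc4a2, Slc12a2, Slc20a2, Slc30a1, Slc39a4 and Slc39a8, and its low ones Slc12a5, Slc24a2, Slc24a3, Slc30a3 and Slc30a9. After it, sham 1 held the highest value in 10 genes (18.5%, against 15% of all genes). With 1 library left out, between 0 and 5 of the 54 had an unadjusted p under 0.05 in limma's test, with 0 without TBI 1, TBI 4, sham 3 or sham 5. Over all 16194 genes tested, these fits gave 339 to 775 genes with such a p, and 740 without TBI 2, where the 5 were found. Without both TBI 1 and sham 2, 2 of the 54 had such a p, among them Slc12a2, at adjusted p = 0.981. In that fit 693 of all genes tested had one.

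**Figure D5:**
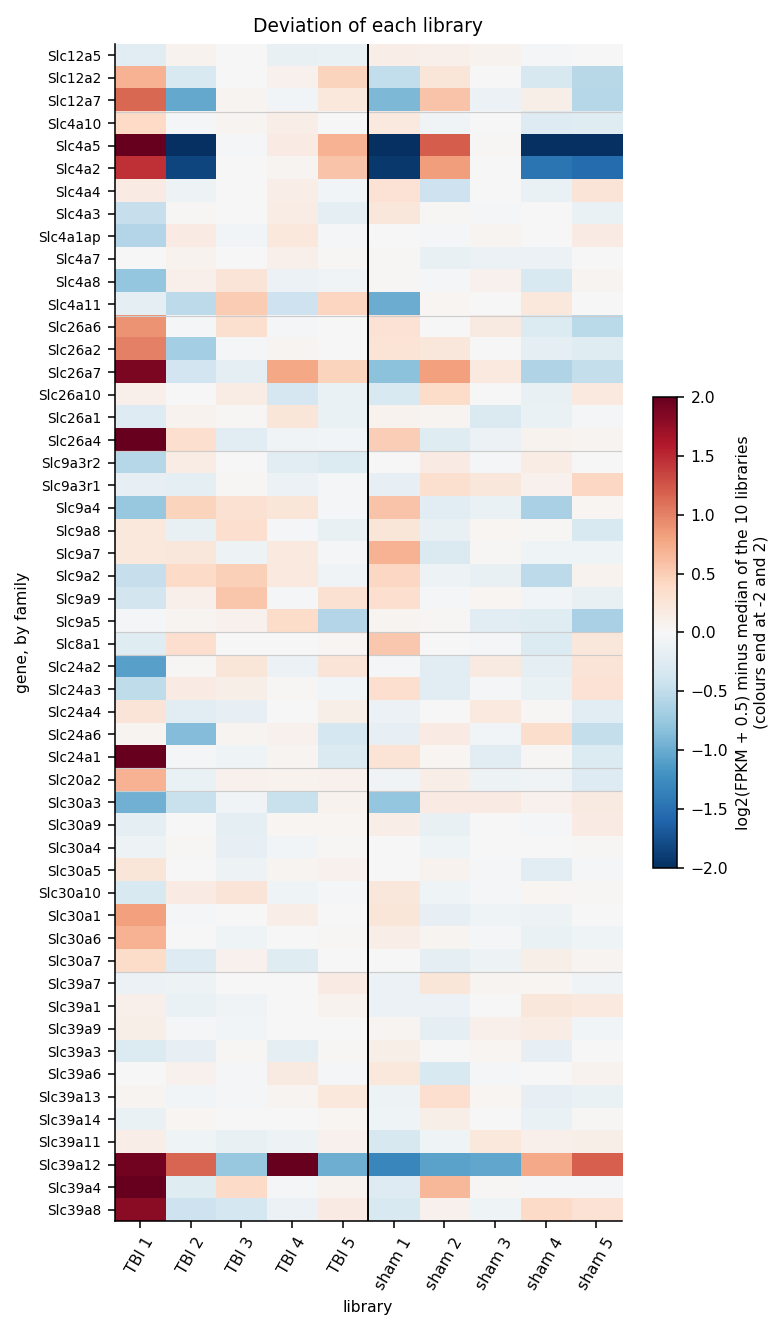
Deviation of each library (columns, TBI left of the black line, sham right) from the median of the 10 libraries for the same 52 tested genes (rows, by family), on the log2(FPKM + 0.5) scale with colours ending at -2 and 2. TBI 1 is the most strongly coloured column, Slc4a5 and Slc4a2 alternate in blocks of high and low libraries in both groups, and most zinc carriers are pale throughout.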

How the data were processed

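The authors deposited FPKM values for 10 hippocampal libraries in 1 table, with a status word beside each value. TopHat, Bowtie, Cufflinks and Cuffdiff and the build rn5 are named in the submitters' processing notes. The sources used here give neither their roles or versions nor the annotation. FPKM divides by estimated length and library total, so an abundant transcript such as Ttr can lower others. No 2 columns were identical, 75th percentiles were 13.1 to 13.5 FPKM, and depth is unknown. Strand information is absent, so overlapping genes cannot be told apart. Of the 25269 rows, 81 had a status other than OK, 0 of them members.

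Groups were taken from the labels. Rows sharing a symbol were summed, and genes with a mean of at least 0.5 FPKM were tested with limma 3.58.1 (R 4.3.3, mean trend, two-sided) on log2(FPKM + 0.5), adjusted over 16194 genes. The procedure was tested on simulated data. Library values are given for each family's most abundant member and smallest p, members with an unadjusted p under 0.05 and a preset list, and other genes were named after their values were seen. Of the tested members 2 are counted but not reported by name here. Members and lists were chosen with earlier results of these data known. Alternatives covered the pseudocount, filter, scaling, variance model, weights, a replicate block, marker scores, row summing and each library left out. RefSeq promoters are of another build, GRCr8, and matched 54 members, 3 of them by synonym.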

Additional observations from a re-analysis of the deposited data

Results flagged for a closer look

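Within each group of 5 libraries, a value was singled out where its gap to the nearest other library was more than 0.71 of the group's range on the log2(FPKM + 0.5) scale. Chance gives about 1 in 20 such groups. Over the 52 tested genes given by name and both groups, 13 of 104 groups were singled out, against 5.2 given by chance. That is 12.5% of groups, against 9.35% over all 16194 genes tested, and 9 of the 13 were values of TBI 1, 17.3% of the 52 genes, against 9.6% of all genes. The genes Slc24a1 and Slc39a4 were tested only because of their level in TBI 1. Highest of the TBI libraries in TBI 1 were Slc20a2 at 51.1 FPKM (next 33.4), Slc24a1 at 5.30 (next 0.284), Slc26a4 at 3.69 (next 0.746), Slc30a1 at 18.4 (next 11.3), Slc30a6 at 8.77 (next 5.29), Slc39a4 at 23.7 (next 0.323) and Slc39a8 at 5.91 (next 1.57). Lowest there were Slc24a2 at 44.1 FPKM (next 86.6) and Slc39a14 at 6.53 (next 7.18). The value of Slc39a14 was close to that of sham 4, at 6.55 FPKM, in a gene whose highest library was 1.2 times its lowest. The libraries TBI 2 to TBI 5 had no value singled out.

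In sham, 4 values were singled out and all were low. They were Slc30a3 at 49.3 FPKM (next 89.6) and Slc4a11, a borate and proton carrier, at 1.09 (next 2.63) in sham 1, Slc30a4 at 17.0 (next 18.1) in sham 2, and the bicarbonate carrier Slc4a8 at 8.45 (next 10.4) in sham 4. The gap of Slc30a4 is about 1 FPKM in a gene that varied little.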

How the results depend on the processing

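The comparison was recomputed under 24 alternatives. None of the 54 genes was called under any, and their smallest adjusted p in limma's test was 0.592. Between 0 and 5 of them had an unadjusted p under 0.05, with 1 in the fit reported. Over all genes 0 were called, except 2 without sham 4 (Plac9 and the unnamed row XLOC_020489). At an unadjusted p under 0.05 there were 472 genes, and 1318 with array weights, 785 with the meninges score, 320 with the choroid plexus score and 339 to 775 with 1 library left out. Quantile normalization moved the median of all genes by less than 0.1, to -0.0113.

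Of 472 recomputed differences of the 20 genes given by library, 27 changed sign, in 7 genes. Slc24a1 was at -0.0508 without TBI 1 and -0.0313 without TBI 1 and sham 2, a pair chosen after the data were seen. Slc24a2 was at 0.0984 and 0.0455 in the same fits. Slc30a10 was at 0.0192 with array weights, 0.0488 with the choroid plexus score and 0.00804 without that pair, and from -0.10 to 0.0376 with 1 library left out. Slc39a14 was at -0.0265 with quantile normalization, -0.0149 with rescaling to the same median, -0.0108 with the choroid plexus score and -0.000873 with the meninges score, and from -0.0258 to 0.0355 with 1 library left out. Slc39a7 was at 0.042 without the pair, and from -0.0821 to 0.0151 with 1 library left out. Slc39a8 was at -0.16 with array weights, -0.0647 with the choroid plexus score and -0.25 without the pair, and from -0.26 to 0.30 with 1 library left out. Slc8a1 was at 0.0406 with array weights and 0.053 with the choroid plexus score, and from -0.15 to 0.0513 with 1 library left out. For Slc24a1 and Slc24a2 the ranges with 1 library left out were -0.0508 to 0.76 and -0.24 to 0.0984. None of these 7 genes was called, and the causes of the sign changes were not tested.

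The ratio of Slc12a5 to Slc12a2 differed by -0.72 to -0.40 with 1 library left out, and passed without TBI 2 (exact permutation p = 0.0317) and without sham 2 (exact permutation p = 0.0476). The deviations of libraries with the same number had correlations of -0.379 to 0.306. These cannot settle whether the numbers pair the libraries, because tissue content differed between libraries within both groups. The labels do not say so either. With a replicate block 0 genes were called. An unadjusted limma p under 0.05 was found there for 3 of the 54, against 672 of all 16194 genes tested. An exact two-sided sign-flip test of the ratio gave p = 0.188. The smallest p that its 32 sign patterns allow is 0.0625, so the test could not have passed. The block moved the unadjusted limma p of Slc30a3 from 0.17 to 0.0121, while leaving out TBI 1 moved it to 0.388. Depth is unknown, so precision rests on the spread between libraries.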
